A study of Mus musculus with 13 samples.

Results

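The BCL2 family of apoptosis regulators was followed by RNA sequencing in 4T1-Thy1.1 cells, a mouse mammary carcinoma line that carries a Thy1.1 transgene. The family was taken as 10 genes chosen by symbol, whatever their values, though earlier results of these data were known. Of the 10 genes, 9 were among the 13222 genes listed. These were 3 guardians (*Bcl2*, *Bcl2l1* and *Mcl1*), 2 effectors (*Bax* and *Bak1*) and 4 BH3-only genes (*Bid*, *Bad*, *Bcl2l11* and *Bbc3*), and *Pmaip1* was not analysed here. All 9 passed the filter on low values and were among the 12319 genes tested. Cells were grown to 25% confluency in 12 well plates and lysed after 48 h. The labels give DMEM/F12 with FBS as the medium of these samples, whereas the study's methods give RPMI with FBS for the line in general. Control cells (n = 3) received neither agent. The other groups received doxorubicin (DOX) at 200 ng/mL (n = 4), recombinant mouse IL-17A at 25 ng/mL (n = 3), or both agents (DOX+IL-17A, n = 3). All 4 groups were the same line. The study's methods describe its data in general as biological replicates and do not say how the libraries of a group here were separated. The limma p-values therefore set differences of group means against the spread between these libraries, estimated over all 4 groups together. DOX is an anthracycline that damages DNA through topoisomerase II, and IL-17A is a cytokine secreted by subsets of T cells. The design asked whether the cytokine alters the transcriptional response of tumor cells to the drug.

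BCL2 family proteins decide whether the outer mitochondrial membrane stays intact. Guardians hold the effectors in check, and when BH3-only proteins bind the guardians or activate the effectors directly, BAX and BAK form pores through which cytochrome c leaves and caspases are activated. BH3-only proteins report different stresses: p53 acts through *Bbc3* (PUMA) and *Pmaip1* (NOXA), loss of growth factor signals through *Bad* and *Bcl2l11* (BIM), and death receptors through cleavage of BID by caspase-8. Much of this control lies in protein cleavage, phosphorylation and turnover, which RNA levels do not show.

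Levels are given as RPM after TMM scaling, that is as reads relative to the scaled total of the library. The libraries were read from the 3' end, so that each transcript gives about 1 read whatever its length, and levels of different genes can be set side by side. The same chemistry cannot separate splice forms that share a 3' end, such as the long and short forms of *Bcl2l1* or the forms of *Bcl2l11* and *Mcl1*. Reads on listed genes ran from 4445592 to 16930600 per library (median 9077387), and 3 reads, taken as the detection floor, corresponded to 0.183 to 0.613 RPM. The 9 members had between 53 and 2804 reads in every library. In bulk RNA, fewer cells of a type and less RNA per cell cannot be told apart.

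Epithelial markers of the line were present, and *Epcam*, *Krt8* and *Krt18* were at 81.4 RPM or more in every library. The list of 9 markers also held *Thy1*, the gene of the line's transgene, which is not an epithelial marker. Summed over 9 of 9 listed markers, values ran from 2052 to 2466 in control, 1094 to 1165 in DOX, 938 to 1225 in DOX+IL-17A and 1832 to 2193 in IL-17A libraries. Of the 9 markers 8 were tested. With DOX, limma called 5 lower and 1 higher, beside 9.71% and 12.4% of all tested genes. The median log2 fold change of the list was -0.78, against 0.09 over all genes. None of 4 endothelial markers was listed. Of 6 immune markers 2 were listed, with sums from 14.1 to 18.3 in control, 18.04 to 35.7 in DOX, 6.06 to 12.5 in DOX+IL-17A and 2.14 to 7.39 in IL-17A libraries. The sums of both groups with IL-17A lay below control. The 2 genes went opposite ways in DOX+IL-17A against control, with log2 fold changes of -1.19 and 1.33. Only the higher one was called by limma (adjusted p = 0.022), 1 of the 2 was called by voom, and neither by edgeR or DESeq2. In DOX+IL-17A against IL-17A, 1 of the 2 was called by limma, voom, edgeR and DESeq2, higher by limma. Of 6 fibroblast markers 5 were listed, with a sum of 143 in control replicate 1 and of 27.9 to 78.1 in the other libraries. DOX replicate 1 stood apart in skeletal muscle markers (6 of 6 listed, sum 208 against at most 34.5 elsewhere) and red blood cell markers (3 of 5 listed, 66.5 against at most 14.4). Control replicate 1 stood apart on the second principal component of all tested genes (score 74.7, with 20.5% of the variance, against -42.9 to 23.4 elsewhere). Control replicate 1 is also the library on which values of *Bad*, *Bak1*, *Bcl2l1* and *Bnip3l* turn, and the calls that change without it or without DOX replicate 1 are given with both values. The part of other cell types in the results was not tested.

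Promoter sequences are shown for the single member that was called (*Bid*) and for the family gene with the largest fall (*Bnip3*). That of *Bax* is shown because it was the only one of the 9 listed members with a match to the p53 half-site consensus, a decamer. Each is the 250 bases before the RefSeq transcription start on GRCm38.p6, the assembly that matches the mm10 build of the reads. It is written 5′ to 3′ on the strand of the gene, all 3 of which lie on the minus strand. Capitals mark a p53 consensus decamer in *Bax* and the hypoxia response element core ACGTG in *Bnip3*, where matches on both strands overlap within CACGTG. The *Bid* sequence spans chr6:120916825-120917074, that of *Bax* chr7:45466899-45467148 and that of *Bnip3* chr7:138909507-138909756.
Bid: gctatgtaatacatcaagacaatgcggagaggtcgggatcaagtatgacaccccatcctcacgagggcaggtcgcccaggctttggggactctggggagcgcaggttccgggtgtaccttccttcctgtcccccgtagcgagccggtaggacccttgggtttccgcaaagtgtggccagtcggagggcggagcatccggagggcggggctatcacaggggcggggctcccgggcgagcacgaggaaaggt
Bax: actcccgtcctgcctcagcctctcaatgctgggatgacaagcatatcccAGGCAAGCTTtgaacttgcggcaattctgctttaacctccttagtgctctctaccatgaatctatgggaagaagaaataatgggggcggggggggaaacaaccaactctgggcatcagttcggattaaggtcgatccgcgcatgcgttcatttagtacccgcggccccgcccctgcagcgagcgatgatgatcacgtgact
Bnip3: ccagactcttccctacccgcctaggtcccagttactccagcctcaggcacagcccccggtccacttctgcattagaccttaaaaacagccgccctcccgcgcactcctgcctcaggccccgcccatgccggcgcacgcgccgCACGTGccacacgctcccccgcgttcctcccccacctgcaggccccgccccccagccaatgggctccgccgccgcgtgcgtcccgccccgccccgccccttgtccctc

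In this window *Bid* held none of the 6 motifs searched on both strands. These were the p53 decamer and the NF-kB consensus (each by its name), the AP-1 site TGANTCA, the cAMP response element core TGACG, the hypoxia core ACGTG and the E2F site TTTNNCGC. Among 32851 promoters of the same length, 7.13% held the p53 decamer, 7.25% the NF-kB consensus, 6.75% TGANTCA, 17.8% TGACG, 16.6% ACGTG and 4.28% TTTNNCGC. The 9 members had 15 promoter entries. The p53 decamer was found in 1 of them, that of *Bax*, 201 bases before the start. Outside the listed members, the family gene *Bmf* also held it, 213 bases before 1 of its starts. An NF-kB match lay 242 bases before 1 start of *Bcl2l1* and 2 overlapping matches 136 and 137 bases before 1 start of *Bbc3*. TGACG occurred 107 bases before the start of *Bcl2* and 55 bases before the same *Bbc3* start, and TTTNNCGC 145 bases before the same *Bcl2l1* start. ACGTG occurred in *Bax* and in another *Bbc3* entry. *Mcl1*, *Bak1*, *Bad* and *Bcl2l11* held no match in any entry. A match is a description of the letters and not a binding site.

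By GENCODE M21 on mm10, *Bcl2* lies at chr1:106538178-106714274, *Bcl2l1* at chr2:152780668-152831728 and *Bcl2l11* at chr2:128126038-128162547. *Mcl1* lies at chr3:95658788-95663176, *Bid* at chr6:120891930-120916853, *Bax* at chr7:45461697-45466898 and *Bbc3* at chr7:16308393-16318205. *Bak1* lies at chr17:27019810-27029009 and *Bad* at chr19:6941861-6951899. *Bid* and another family gene, *Bcl2l13* (chr6:120836212-120892842), run toward each other on opposite strands and share 628 exonic bases at their 3' ends, all of them in the last 1000 bases of both genes. These libraries were read from the 3' end, and how many reads fell in that stretch was not examined. Whether counting used strand is not given in the sources used here. How reads in that stretch were assigned to *Bid*, to *Bcl2l13* or to neither is therefore not known. The other protein-coding neighbours that overlapped a listed member, for *Bax*, *Bak1* and *Bad*, did so outside its last 1000 bases.

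At rest the family was dominated by a few transcripts. In control cells *Bcl2l11* averaged 160 RPM (SD 32.5, n = 3), higher than 89.7% of tested genes, and *Mcl1* averaged 127 (SD 25.2). *Bad* followed at 107 (SD 79.8) and *Bcl2l1* at 62.6 (SD 32.6), *Bcl2* at 38.6 (SD 7.56), *Bak1* at 30.5 (SD 25.1), *Bid* at 29.0 (SD 19.0), *Bbc3* at 18.6 (SD 8.58) and *Bax* at 11.8 (SD 5.15). The ranges of neighbours in this order overlapped throughout, as those of *Bcl2l11* (137 to 197) and *Mcl1* (104 to 154) did.

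**Figure D1:**
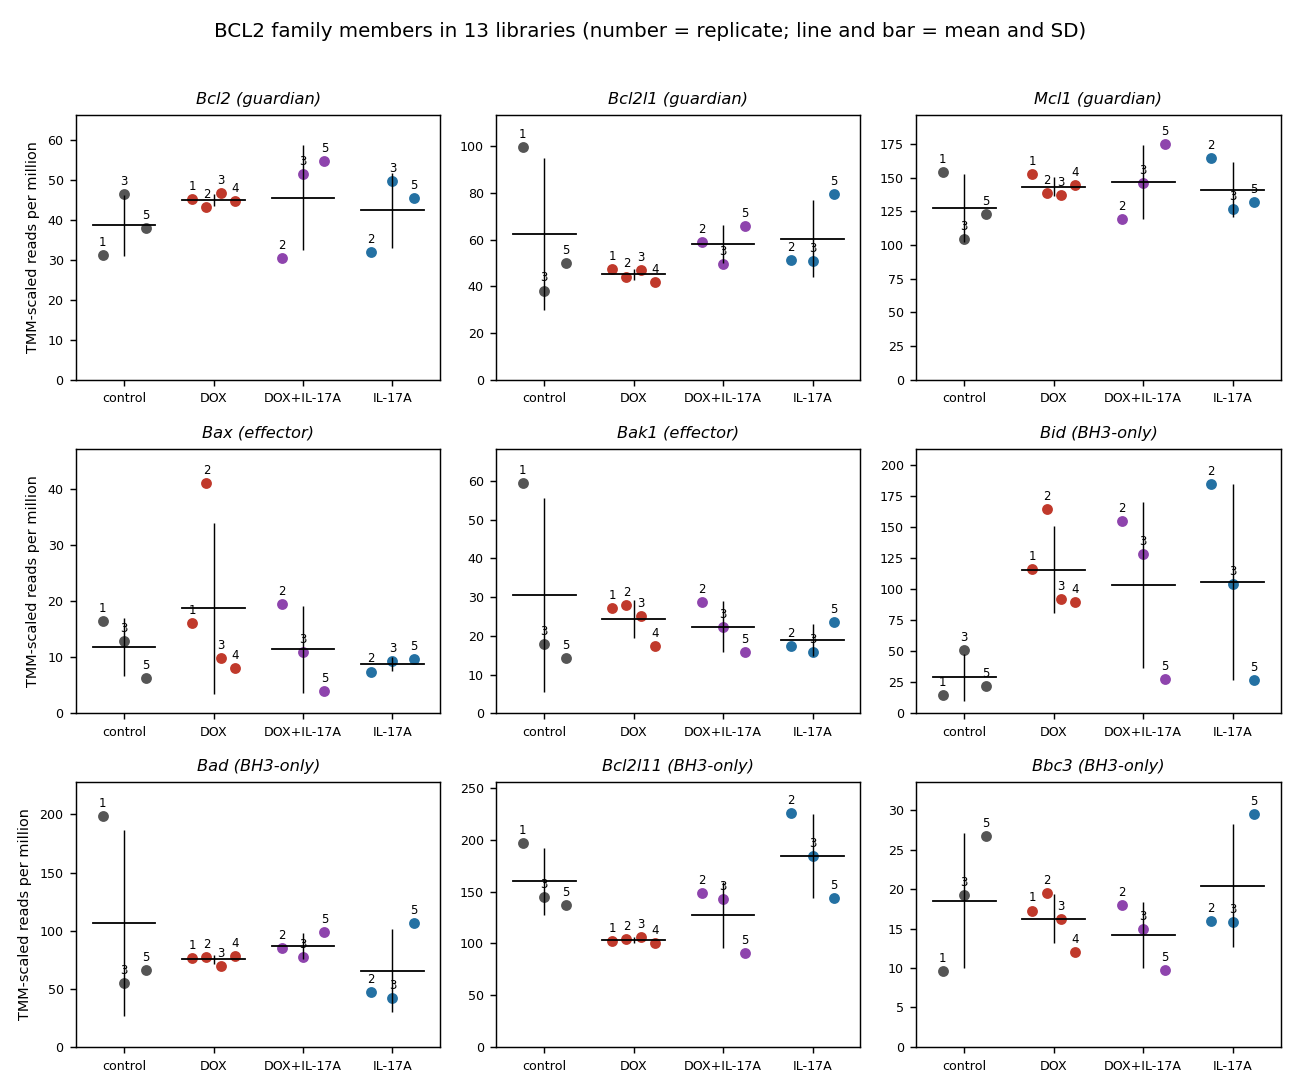
Levels of the 9 listed BCL2 family members in TMM-scaled RPM (vertical axes from 0) in 13 libraries of 4 conditions. Points are libraries with their replicate number, horizontal lines are group means and vertical lines SDs, and *Bid* in DOX (89.8 to 165) lies above control (14.7 to 50.6) while most other members overlap.

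The main comparison asked how the family changed with DOX alone. The limma test called 1 member: *Bid*, whose protein links death receptors to the mitochondrial pathway, was higher with DOX. By limma with Benjamini-Hochberg adjustment over all tested genes, 22.1% of genes were called in either direction, 12.4% higher and 9.71% lower. Of the members 1 of 9 was called higher and 0 lower (2 of 9 at an unadjusted p under 0.05). The count was 1 by edgeR, 2 by DESeq2 and 0 by voom. Counted by class, 1 of 4 BH3-only genes was called, 0 of 3 guardians and 0 of 2 effectors, and the second gene called by DESeq2 was *Bcl2l11*. The median log2 fold change of the 9 members was -0.05, beside 0.09 over all tested genes.

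*Bid* stood at 14.7, 50.6 and 21.8 RPM in control replicates 1, 3 and 5. In DOX replicates 1 to 4 it stood at 116, 165, 92.0 and 89.8. The groups did not overlap, and the lowest DOX library held more than the highest control library. The log2 fold change was 2.10 (SE 0.62, 95% interval 0.78 to 3.41, limma adjusted p = 0.025), and the ratio of the group means was 3.98. The exact 2-sided permutation test gave p = 0.057, the smallest that 3 against 4 libraries allow. The call was lost without control replicate 1 (log2 fold change 1.72, adjusted p = 0.068), control replicate 5 (1.99, 0.073), DOX replicate 1 (2.08, 0.051) or DOX replicate 2 (1.91, 0.065), and without the first libraries of both groups (1.70, 0.11). In each of these fits *Bid* stayed higher in DOX.

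The *Bid* transcript also varied within groups more than almost any other gene. Its residual SD was 1.03 on the log2 scale, larger than that of 98.4% of tested genes (median 0.43) and of 99.6% of the 500 genes nearest in level. Over the 13 libraries it ranged 12.6-fold, from 87 to 1640 reads. In DOX+IL-17A it stood at 154, 128 and 27.2 in replicates 2, 3 and 5, and in IL-17A at 185, 104 and 27.0. The libraries numbered 5 were low in all 3 groups that had one (21.8, 27.2 and 27.0), and those numbered 2 were the highest of their groups (165, 154 and 185). Control had no library numbered 2 and DOX none numbered 5, so number and treatment cannot be fully told apart in DOX against control. Numbers 1 and 3 were in both, at 14.7 and 50.6 in control and 116 and 92.0 in DOX. With replicate number as a block, the log2 fold change of *Bid* was 1.47 (limma adjusted p = 0.030). *Bcl2l13*, which shares its 3' end, ranged from 17.1 to 38.2 over the same libraries and was not called in any comparison. Genes most like *Bid* over 13 libraries were *Tnfrsf12a* (Pearson r = 0.95), *Polr2m* (0.95) and *Pdcd6* (0.95). After removal of the group means they were *Syvn1* (0.98), *Rps12-ps24* (0.97) and *Hnrnpf* (0.97). These correlations describe only 13 libraries, which differed in treatment and depth.

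*Bcl2l11*, which encodes BIM and binds every guardian, was the member with the next lowest p. It stood at 197, 145 and 137 RPM in control and at 102, 104, 106 and 99.97 in DOX. The 4 DOX libraries lay close together and all below control. The log2 fold change was -0.61 (SE 0.22, 95% interval -1.07 to -0.15), with a limma adjusted p of 0.056 that missed the threshold. It passed by DESeq2 (-0.67, adjusted p = 0.026) and when only the control and DOX libraries were fitted (adjusted p = 0.043). With the first libraries of both groups left out it was -0.44 (adjusted p = 0.21), and with scaling by library size in place of TMM it was -0.43 (adjusted p = 0.17).

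Of the remaining BH3-only genes, *Bad*, which is held inactive by phosphorylation, stood at 198, 54.8 and 66.4 RPM in control and at 76.8, 77.4, 69.9 and 77.9 in DOX. Control replicate 1 alone lay above the DOX range, and the other control libraries lay below it. The log2 fold change was -0.25 (95% interval -1.04 to 0.54) and turned to 0.32 without control replicate 1. *Bbc3*, a classical p53 target, stood at 9.64, 19.3 and 26.8 in control and at 17.3, 19.5, 16.2 and 12.1 in DOX. Its DOX range lay inside the control range, with a log2 fold change of -0.09 (95% interval -0.84 to 0.66).

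The guardians did not pass the test with DOX, and their intervals bounded the change. *Bcl2* stood at 31.3, 46.4 and 38.1 RPM in control and at 45.2, 43.3, 46.7 and 44.6 in DOX (log2 fold change 0.23, 95% interval -0.29 to 0.75). *Mcl1*, a short-lived protein, stood at 154, 104 and 123 in control and at 153, 139, 137 and 145 in DOX (0.19, 95% interval -0.22 to 0.59). *Bcl2l1*, which encodes BCL-XL, stood at 99.6, 38.2 and 49.9 in control and at 47.2, 44.2, 47.1 and 42.0 in DOX. Its log2 fold change of -0.35 (95% interval -0.94 to 0.25) came to 0.05 without control replicate 1. All 3 guardians varied little among DOX libraries, with SDs of 1.43 for *Bcl2*, 2.51 for *Bcl2l1* and 6.96 for *Mcl1*.

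The effectors were measured less precisely. *Bax* stood at 16.4, 12.8 and 6.25 RPM in control and at 16.0, 41.0, 9.79 and 8.05 in DOX, where replicate 2 was high. Its log2 fold change was 0.43 with a 95% interval from -0.69 to 1.55, and its residual SD exceeded that of 93.8% of tested genes. Without DOX replicate 2 it came to -0.02 and without control replicate 5 to 0.069. *Bak1* stood at 59.4, 18.0 and 14.1 in control and at 27.0, 27.9, 25.2 and 17.4 in DOX. Its log2 fold change was -0.05 (95% interval -0.89 to 0.79) and turned to 0.56 without control replicate 1, the highest of all 13 libraries.

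**Figure D2:**
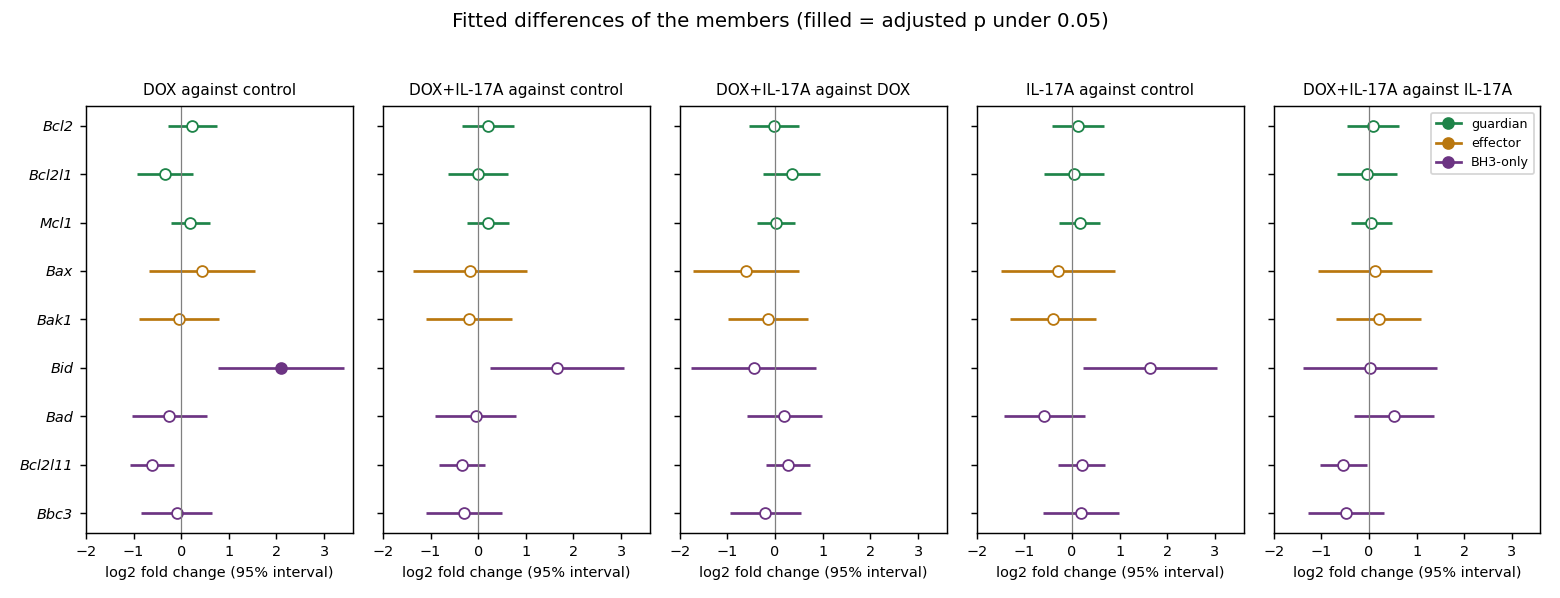
Fitted log2 fold change (horizontal axes) of each listed member in 5 comparisons, with 95% intervals as lines. The filled point is the single call, *Bid* in DOX against control (2.10), and the intervals of most members span 0.

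DOX+IL-17A against control gave 0 calls among the 9 members by limma, edgeR, DESeq2 and voom (1 at an unadjusted p under 0.05), beside 17.7% of all tested genes called by limma, 9.37% higher and 8.34% lower. *Bid* had a log2 fold change of 1.64 (95% interval 0.24 to 3.05, adjusted p = 0.098), with replicate 5 (27.2) inside the control range. It was called without control replicate 3 (2.13, adjusted p = 0.045), DOX+IL-17A replicate 5 (2.42, 0.021) or IL-17A replicate 5 (1.64, 0.049). *Bcl2l11* stood at 149, 143 and 90.9 RPM, a log2 fold change of -0.34 (95% interval -0.83 to 0.15). The other members ran from -0.30 (*Bbc3*) to 0.21 (*Bcl2* and *Mcl1*), and the median of all 9 was -0.05 beside 0.04 over all genes. DOX against control shares its control libraries with this comparison.

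IL-17A added to DOX left 0 of 9 members called against DOX alone, also by edgeR, DESeq2 and voom (0 at an unadjusted p under 0.05). In this comparison limma called 0.455% of tested genes. *Bcl2l1* stood at 58.9, 49.5 and 65.9 RPM, all above the highest DOX library (47.2). Its log2 fold change was 0.35 (95% interval -0.24 to 0.94, limma unadjusted p = 0.23, adjusted p = 0.998). The exact 2-sided permutation test gave p = 0.057, the smallest possible, which any gene with separate ranges reaches. The share of all tested genes with separate ranges was not counted. *Bax*, at 19.4, 10.8 and 3.99, had the lowest log2 fold change (-0.61, 95% interval -1.73 to 0.51). *Bid* came to -0.45 (95% interval -1.77 to 0.86) and *Bcl2l11* to 0.27 (-0.19 to 0.73). *Mcl1*, at 120, 146 and 175, came to 0.02 (-0.39 to 0.43), the narrowest interval of the members, and *Bcl2*, at 30.5, 51.5 and 54.7, to -0.02 (-0.54 to 0.49). *Bak1*, *Bad* and *Bbc3* lay between -0.20 and 0.20. The median of the members was -0.02 beside -0.03 over all genes.

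IL-17A alone also gave 0 calls among members by limma, edgeR, DESeq2 and voom (1 at an unadjusted p under 0.05), and limma called 0.00812% of all tested genes, that is 1 gene. *Bid* had a log2 fold change of 1.63 (95% interval 0.22 to 3.03, unadjusted p = 0.026, limma adjusted p = 0.96), with replicates 2 and 3 above control and replicate 5 inside its range. *Bcl2l11* stood at 226, 184 and 144 RPM (0.20, 95% interval -0.29 to 0.69). *Bad* stood at 47.2, 42.4 and 107 (-0.58, 95% interval -1.43 to 0.27). The 3 guardians lay between 0.04 and 0.16 and the effectors at -0.30 (*Bax*) and -0.40 (*Bak1*). *Bbc3* came to 0.18, with 29.5 RPM in replicate 5 against 16.0 and 15.9 in the others.

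With IL-17A present in both groups, DOX+IL-17A against IL-17A called 13.3% of tested genes by limma, 6.51% higher and 6.75% lower. Of the members 0 of 9 were called by limma, edgeR, DESeq2 and voom (1 at an unadjusted p under 0.05). That member was *Bcl2l11*, with a log2 fold change of -0.54 (95% interval -1.03 to -0.05, adjusted p = 0.14). *Bid* came to 0.02 (95% interval -1.39 to 1.42), with DOX+IL-17A spread from 27.2 to 154 and IL-17A from 27.0 to 185. The difference between the IL-17A effects with and without DOX was called for 0.0% of tested genes by limma, for 0 genes by edgeR and voom and for 18 by DESeq2 (556 at an unadjusted p under 0.05 by limma). None of the 9 members was called by any of these tools, and 1 had an unadjusted p under 0.05. That member was *Bid*, at -2.08 (95% interval -4.00 to -0.15, unadjusted p = 0.036, limma adjusted p = 0.90).

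Summed by class, guardians made up 31.5% to 54.5% of the family's reads in a library, effectors 3.34% to 10.4% and BH3-only genes 41.8% to 63.5%. The mean guardian share was 39.6% in control (SD 3.68), 40.0% in DOX (SD 3.99), 41.5% in DOX+IL-17A (SD 11.8) and 38.1% in IL-17A (SD 4.93). These means lay within 1 SD of each other. Within the BH3-only class the make-up moved: *Bid* took 3.51%, 18.8% and 8.64% of its reads in control and 37.0%, 45.0%, 32.4% and 32.1% in DOX. In DOX+IL-17A the shares were 38.0%, 35.3% and 12.0%, and in IL-17A 39.0%, 30.05% and 8.79%. BH3-only genes other than *Bid* summed to 405, 219 and 230 RPM in control and to between 190 and 201.3 in DOX. The family sum of control replicate 1 (781) was the highest of all libraries, against 489 and 484 in the other controls.

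**Figure D3:**
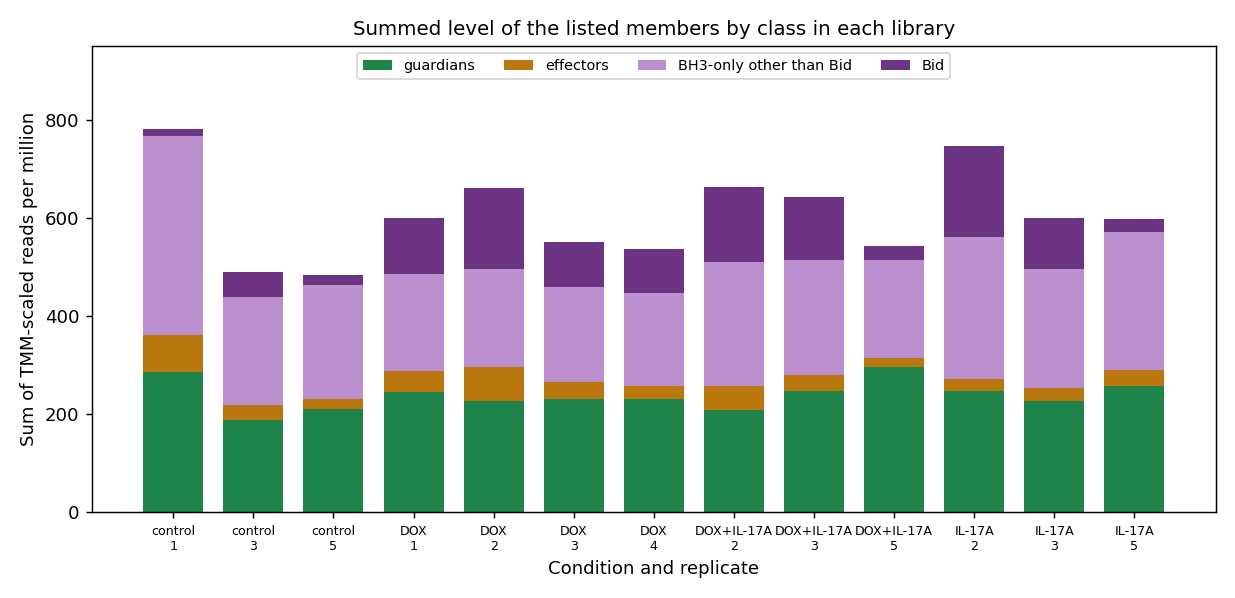
Summed level of the listed members in each of 13 libraries (vertical axis from 0, TMM-scaled RPM), stacked as guardians, effectors, BH3-only genes other than *Bid*, and *Bid*. The *Bid* segment is 14.7 to 50.6 in control and 89.8 to 165 in DOX, and control replicate 1 has the tallest bar (781).

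Changes larger than those of the members were found among 16 further family genes, of which 11 were listed and 9 tested. With DOX 1 of these 9 was called higher and 2 lower by limma, beside 12.4% and 9.71% of all tested genes, and 3 were called by edgeR, DESeq2 and voom. *Bcl2l15* (BFK), a divergent member known from the gastrointestinal tract, stood at 10.3, 9.19 and 5.30 RPM in control and at 79.3, 70.8, 85.8 and 75.2 in DOX. It rose 9.40-fold, with no overlap (log2 fold change 3.13, SE 0.28, limma adjusted p = 8.4e-06). In DOX+IL-17A it stood at 135, 103 and 185 (3.94 against control, adjusted p = 3.0e-06) and in IL-17A at 13.6, 13.5 and 24.9 (0.97 against control, unadjusted p = 0.0052, adjusted p = 0.96). The lowest DOX+IL-17A library exceeded the highest DOX library, with a log2 fold change of 0.81 (95% interval 0.21 to 1.40, adjusted p = 0.46). Against IL-17A the change with DOX+IL-17A was 2.96 (adjusted p = 6.1e-05).

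*Bnip3*, a mitochondrial receptor for mitophagy that hypoxia induces and whose promoter is shown above, fell with DOX in every library. It stood at 194, 200.3 and 261 RPM in control and at 44.7, 27.3, 34.1 and 33.4 in DOX (log2 fold change -2.62, SE 0.25, limma adjusted p = 1.2e-05). With DOX+IL-17A it stood at 33.3, 29.3 and 22.0 (-2.92 against control, adjusted p = 2.4e-05, and -2.68 against IL-17A, adjusted p = 6.1e-05). With IL-17A alone it stood at 129, 181 and 262 (-0.24, 95% interval -0.82 to 0.33). *Bnip3l*, its close relative in mitophagy, stood at 146, 611 and 466 in control and at 233, 261, 187 and 205 in DOX (-0.65, adjusted p = 0.24). Without control replicate 1 its log2 fold change was -1.28, which then passed the test (adjusted p = 0.0038). DOX+IL-17A was at -0.60 against control and -1.03 against IL-17A, neither called, and both passed without control replicate 1 (-1.22, adjusted p = 0.0072, and -1.03, adjusted p = 0.0095). The second also passed with only the groups compared (adjusted p = 0.049).

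*Bmf*, a BH3-only gene released upon loss of cell attachment, stood at 3.21, 11.02 and 11.4 RPM in control and at 3.38, 1.53, 0 and 1.88 in DOX. It was called lower (log2 fold change -1.85, SE 0.56, limma adjusted p = 0.029), although DOX replicate 1 lay just above control replicate 1. The call was lost without control replicate 3 (adjusted p = 0.079), control replicate 5 (0.11), DOX replicate 2 (0.053) or DOX replicate 3 (0.089), and with a pseudocount of 0.1 (0.054). In DOX+IL-17A it stood at 0.818, 6.65 and 1.87, which was not called against control (-1.33, adjusted p = 0.14) but was without control replicate 1 (-1.84, adjusted p = 0.039). In IL-17A it stood at 13.2, 14.8 and 8.04, from which DOX+IL-17A differed (-1.89, adjusted p = 0.0499). That last call was made by limma and not by edgeR, DESeq2 or voom. It was lost without control replicate 5, DOX replicate 1, 2 or 4, DOX+IL-17A replicate 2 or 5, or any IL-17A library (adjusted p from 0.052 to 0.19).

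**Figure D4:**
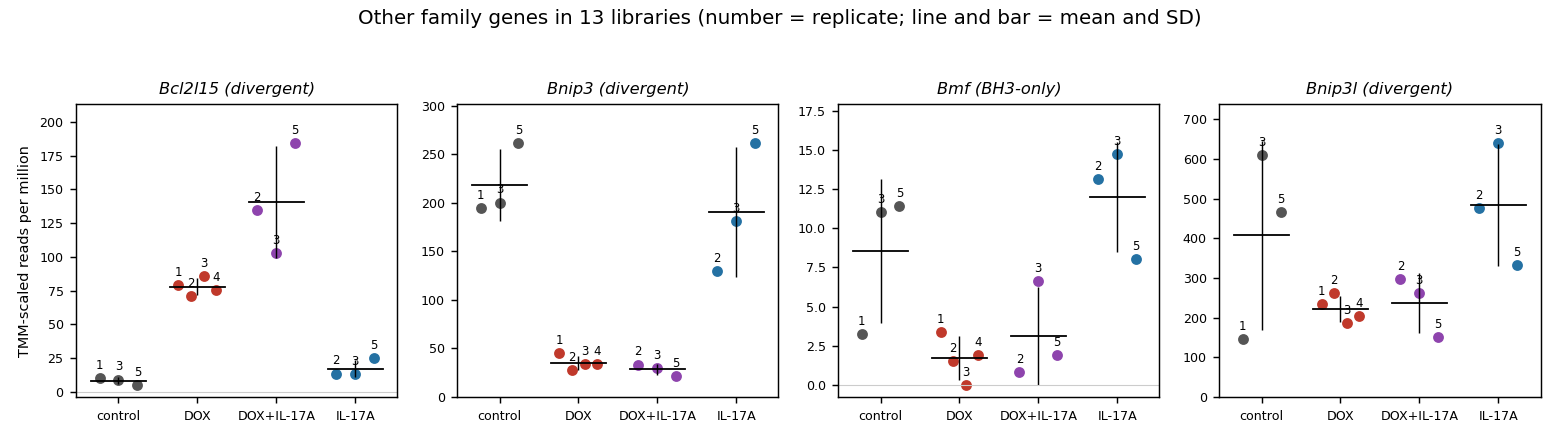
Levels of 4 further family genes in TMM-scaled RPM (vertical axes) in 13 libraries, with replicate numbers, group means and SDs. *Bcl2l15* is at 70.8 or more and *Bnip3* at 44.7 or less in every library that received DOX.

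The rest of the family did not pass the limma test in any comparison. *Bcl2l12* ran from 0.825 to 2.01 RPM in control and from 2.24 to 5.59 in DOX without overlap (log2 fold change 0.98, limma adjusted p = 0.062), and it was called with scaling by library size in place of TMM (1.099, adjusted p = 0.041). *Bcl2l13* ran from 20.4 to 26.2 in control and from 26.3 to 38.2 in DOX (0.44, adjusted p = 0.22), with ranges that met without overlapping. *Bok*, a further effector, and *Bcl2l2* (BCL-W) had log2 fold changes of -0.12 and -0.34 with DOX. *Bcl2a1a* and its near-identical paralog *Bcl2a1d* reached at most 19 reads in any library, and reads shared by such copies make their values uncertain. *Hrk* was detected in 3 libraries only, all of them with DOX, at 10 to 14 reads.

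The other genes of the pathway were grouped in lists by function, to be read beside the 22.1% of all tested genes called with DOX. Among the caspase and apoptosome genes, 1 of 12 tested was called with DOX: *Cycs* (cytochrome c) ran from 97.8 to 299 in control and from 299 to 367 in DOX (log2 fold change 1.14, adjusted p = 0.012). The median of that list was 0.03, beside 0.09 over all genes. Among 6 inhibitor of apoptosis genes, *Birc5* (survivin) rose by 0.97 and *Birc6* (BRUCE) fell by 0.85 on the log2 scale. Of 10 genes of the outer mitochondrial membrane and its fission and fusion, 1 was called, *Tspo* at -0.73 (adjusted p = 0.041). It was not called by edgeR (adjusted p = 0.051), with scaling by library size (0.10) or with only the groups compared (0.070).

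Among 11 tested transcription factors that act on the family, 3 were called higher and 1 lower with DOX, beside 12.4% and 9.71% of all tested genes (list median 0.44, against 0.09 over all genes). *Atf3* (3.12) and *Ddit3* (CHOP, 1.86) are stress-response factors, and *Trp53* (1.62) encodes p53. *Trp53* ran from 1.70 to 3.30 RPM in control and from 8.32 to 10.3 in DOX. *Foxo3*, a factor that can induce *Bcl2l11*, was the gene called lower (-1.41), at 0.426 to 5.58 in control and at most 0.447 in DOX, near the detection floor. It was not called by voom (adjusted p = 0.14) or with only the groups compared (0.069). Of 12 tested p53 target genes outside the family, 4 were called higher and 0 lower, beside 12.4% and 9.71% of all tested genes (list median 0.61, against 0.09): *Aen* (2.16), *Sesn2* (1.56), *Fas* (1.48) and *Tnfrsf10b* (1.16), of which the last 2 encode death receptors. *Bax* and *Bbc3*, p53 targets inside the family, had log2 fold changes of 0.43 (-0.02 without DOX replicate 2) and -0.09 and were not called. Whether p53 was functional in this line was not tested, and genes listed as p53 targets can also respond to other factors.

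Of 17 tested genes that act on the turnover or phosphorylation of family proteins, 1 was called higher and 3 lower with DOX, a share near the 22.1% of all tested genes called (list median -0.18, against 0.09). *Huwe1* (MULE), a ubiquitin ligase for MCL1, was at -1.30 and *Usp9x*, which removes ubiquitin from MCL1, at -1.14. *Ywhaz*, a 14-3-3 protein of the kind that holds phosphorylated BAD, was at -0.85 and *March5*, a mitochondrial ubiquitin ligase, at 0.71. Of these 16 named genes 11 kept their call with each of the 13 libraries left out in turn. *Cycs* lost it without control replicate 5 (0.83, adjusted p = 0.07). *Tspo* lost it without control replicate 5, DOX replicate 1 or 2, DOX+IL-17A replicate 3 or IL-17A replicate 3 (adjusted p from 0.052 to 0.16). *Foxo3* lost it without control replicate 1 (-0.87, adjusted p = 0.18) or 5, any DOX library, DOX+IL-17A replicate 3 or IL-17A replicate 3. *Ywhaz* lost it without control replicate 1 (-0.43, adjusted p = 0.10) or any DOX library, and *March5* without control replicate 1 or DOX replicate 2, 3 or 4 (adjusted p from 0.051 to 0.065). *Ywhaz* was also not called with scaling by library size (0.056) or with only the groups compared (0.071). Without the first libraries of control and DOX together, *Tnfrsf10b* (0.67, adjusted p = 0.062), *Tspo* (0.11), *Foxo3* (0.23), *Ywhaz* (0.13) and *March5* (0.075) were not called.

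In DOX+IL-17A against DOX, 0 genes of all 6 lists were called by limma. The counts at an unadjusted p under 0.05 were 0 caspase, 0 inhibitor of apoptosis, 1 membrane, 1 transcription factor, 1 turnover and 3 p53 target genes. By other tools the calls numbered 0, except 1 in the turnover list by voom and by DESeq2. That gene, named after its values were seen, was *Pim2*, a kinase that phosphorylates BAD. It ran from 0.338 to 4.57 RPM in control, 5.45 to 9.84 in DOX, 9.93 to 15.9 in IL-17A and 23.9 to 41.3 in DOX+IL-17A, 4 ranges that did not overlap. Its log2 fold change was 3.19 in DOX+IL-17A against control (limma adjusted p = 0.00060), 1.93 against DOX (0.093) and 2.004 in IL-17A against control (0.50).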

How the data were processed

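Values came from 13 libraries of cultured 4T1-Thy1.1 cells. Per the study's methods, the authors made QuantSeq 3' FWD libraries, sequenced single 75 base reads, aligned them with STAR 2.6 to mm10, counted genes with featureCounts (Rsubread 1.30.5) and normalized by TMM. The submitters' processing notes also name FastQC and Trimmomatic. The authors deposited a normalized signal per gene and library, with no raw counts. Within a library all values were whole multiples of 1 step (tolerance 0.01 read), so reads per gene were recovered. Of 13223 entries 1 repeat was dropped.

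Differences were tested by limma 3.58.1 with a mean-variance trend, after a pseudocount of 1 and log2 transformation. A single factor, treatment, was fitted to the 13 libraries together, which left 9 degrees of freedom, over 12319 genes kept by filterByExpr of edgeR 4.0.16 on the recovered reads. Fold changes are on that scale and understate those of low genes. Calls are Benjamini-Hochberg adjusted p under 0.05 over all tested genes. Single genes were also compared by exact permutation tests. Floors cover counting error only. The script was tested on simulated data. Alternatives are in the closing section.

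The members and lists were chosen with earlier results of these data known. All members and further family genes are named, and from the other lists up to 5 genes with the largest change among those called with DOX. One member was not analysed here. R 4.3.3, DESeq2 1.42.0, Python 3.11.15 and GENCODE M21 were used.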

Additional observations from a re-analysis of the deposited data

Results flagged for a closer look

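One value stood apart from its group. *Bad* was lowest in DOX replicate 3, at 69.9 RPM, against 76.8 in the nearest of the other 3 DOX libraries, a gap of 0.862 of the group's whole range. In all 18 tested family genes were looked at in the 4 DOX libraries, the only group large enough, and chance flags about 1 in 20 such groups. All 4 values lay between 69.9 and 77.9 RPM, and no call in the report rests on this library's *Bad* level.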

How the results depend on the processing

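The log2 fold change of *Bid* in DOX against control stayed positive under all 23 alternatives (1.47 to 2.58) and was called in 17, and that of *Bcl2l11* stayed negative (-0.79 to -0.43) and was called in 5. The count of members called in that comparison, 1, was 0 by voom (*Bid* 1.99, adjusted p = 0.056), 2 by DESeq2, 2 with only the groups compared and 2 with the replicate block (*Bid* 1.47, adjusted p = 0.030, and *Bcl2l11* -0.79, adjusted p = 0.024). It was 0 without the first libraries of control and DOX, an alternative chosen after seeing the data, and 0 to 2 with each library left out: 0 without control replicate 1 or 5 or DOX replicate 1 or 2, and 2 without DOX+IL-17A or IL-17A replicate 5. In DOX+IL-17A against control the count was 0 to 1 (*Bid*). *Bcl2l15* and *Bnip3* kept their calls with DOX under all 23 alternatives.

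The labels share replicate numbers between groups, but do not say that a number marks a shared culture or day. Of 13 same-numbered pairs of libraries, 8 had deviations from the group means that correlated above 0.1 (mean r 0.15, from -0.18 to 0.49). Of 50 pairs from different groups with different numbers, 13 did (mean r -0.037, from -0.56 to 0.47). Of 12 libraries, 7 correlated best with one of their own number. For want of a label, the main fit did not assume pairing, and the replicate block is an alternative. What the numbers mark was not tested. With the block, *Bmf* (adjusted p = 0.086), *Trp53* (0.055), *Foxo3* (0.086), *March5* (0.082) and *Tspo* (0.051) were not called with DOX, nor *Bmf* in DOX+IL-17A against IL-17A (0.073).

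With scaling by library size alone, the median over tested genes was 0.24 (log2) in place of 0.09 in DOX against control, 0.20 in place of 0.04 in DOX+IL-17A against control and 0.22 in place of 0.02 against IL-17A. The share of calls that were higher went from 56.1% to 71.7%, from 52.9% to 69.1% and from 49.1% to 72.5%.

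Of 124 log2 fold changes 49 took the other sign under 1 alternative or more, 153 times in all, and none was called before or after. The 23 changes of sign that exceeded 1 standard error follow. Among the smaller ones, *Bax* with DOX ran from -0.02 to 0.72 with 1 library left out. Without the first libraries of control and DOX, the log2 fold change with DOX became 0.02 for *Bcl2l1*, 0.50 for *Bak1* and 0.31 for *Bad*. With DOX+IL-17A against control it became 0.42 for *Bak1* and 0.51 for *Bad*. With IL-17A it became 0.21 for *Bak1*, -0.20 for *Bbc3* and -0.19 for *Bnip3l*, whose difference of IL-17A effects became 0.27. With 1 library left out, DOX against control ran from -0.63 to 0.045 for *Bcl2l1*, -0.44 to 0.56 for *Bak1* and -0.60 to 0.32 for *Bad*. DOX+IL-17A against control ran from -0.58 to 0.42 for *Bak1* and -0.41 to 0.51 for *Bad*, and IL-17A against control from -0.78 to 0.21 for *Bak1*, -0.20 to 0.49 for *Bbc3* and -0.19 to 0.83 for *Bnip3l*. DOX+IL-17A against DOX ran from -0.18 to 0.24 for *Bcl2*, -0.91 to 0.33 for *Bid* and -0.057 to 0.98 for *Bmf*. *Bid* ran from -0.76 to 0.79 against IL-17A, and the difference of IL-17A effects from -0.35 to 0.64 for *Bak1* and -0.78 to 0.25 for *Bnip3l*. The cause was not tested.

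With 3 libraries a group, spreads as wide as that of *Bid* or *Bax* leave 95% intervals more than 2 log2 units wide from end to end.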
